A study of Mus musculus with 12 samples.

Results

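The GATA factors are zinc finger transcription factors that bind the DNA letters GATA, and the FOG proteins are cofactors that bind the amino-terminal finger of a GATA factor and bring in corepressors. GATA1 with FOG1, the product of *Zfpm1*, drives erythroid and megakaryocyte differentiation, while GATA2 acts in stem and progenitor cells, in mast cells and in endothelium, and is replaced by GATA1 at shared sites as red cell precursors mature. GATA3 is best known in T and innate lymphoid cells, and GATA4 and GATA6, with FOG2 from *Zfpm2*, act in heart, liver and lung development, GATA4 also in the sinusoidal endothelium of the liver.

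The set is the 7 genes *Gata1*, *Gata2*, *Gata3*, *Gata4*, *Gata6*, *Zfpm1* and *Zfpm2*, taken by name from the 38127 genes counted in each of 12 RNA sequencing libraries, and all 7 names were found. The libraries came from cells sorted from fetal liver (FL) of C57BL/6 mice, and no group carried a transgene or treatment. From E14.5 FL there were 3 libraries each of P2 cells (Ter119-CD45-CD54-CD31-Kit+CD24+), of CD54+CD31- cells within Ter119-CD45- cells, and of CD31+ cells (Ter119-CD45-CD54+CD31+), which are endothelial. The study names CD324+ cells, after epithelial cadherin, among its sequenced E14.5 populations. The CD54+CD31- cells at E14.5 are therefore called CD324+ cells here, and their epithelial cadherin level is not reported here. From E18.5 FL there were 3 libraries of CD54+CD31- cells. The groups are gates on surface proteins and not pure cell types, and in such bulk RNA fewer cells of a type and less RNA per cell cannot be told apart.

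Total counts ranged from 40714017 to 64368883 per library. Counting error was not small for members with few counts, and their counts are given. Levels are TMM-normalized CPM, that is, counts divided by the effective size of the library. Differences were tested by the quasi-likelihood test of edgeR over all genes, and a gene was called higher or lower at an adjusted p (Benjamini-Hochberg) below 0.05. Overlap of libraries was not counted over all genes, so where it is named it only describes the values printed. The defining markers followed the labels at E14.5. *Alb* had a mean of 44757 CPM in CD324+ cells, *Pecam1* 591 CPM in CD31+ cells and *Klf1* 397 CPM in P2 cells, each the highest of the 4 groups. The E18.5 libraries did not hold liver cells alone. *Nkx2-1*, the lung and thyroid regulator, averaged 289 CPM there and at most 0.0173 CPM in the other groups, and all 10 lung epithelium markers listed were higher than at E14.5. E18.5 replicate 1 stood apart, with a summed level of 5309 CPM for the hepatoblast product markers against 45145 and 58913 CPM in replicates 2 and 3, and 21673 CPM for the lung epithelium markers against 9765 and 9950 CPM. Among the P2 libraries, replicate 2 held the most endothelial RNA, with 365 CPM summed over the 10 general endothelial markers against 88.7 and 122 CPM. Where leaving out either library changed a member's call or a list's count, both values are given.

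The fingers that define the family are shown because they carry the DNA and FOG contacts and because they are where family members are most alike, so that reads could be shared between them. Each line gives the coding bases from the first to the last zinc-binding cysteine, 75 bases in sense orientation, with the 4 cysteine codons in capitals. The bases were read from the GENCODE vM21 transcripts of GRCm38. The amino-terminal finger, which binds FOG proteins, lies in exon 4 of *Gata1* (chrX:7961984-7962058, minus strand), exon 4 of *Gata2* (chr6:88202430-88202504, plus strand), exon 4 of *Gata3* (chr2:9868821-9868895, minus strand) and exon 3 of *Gata4* (chr14:63204649-63204723, minus strand).
Gata1: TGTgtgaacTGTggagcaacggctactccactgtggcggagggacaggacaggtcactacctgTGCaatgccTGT
Gata2: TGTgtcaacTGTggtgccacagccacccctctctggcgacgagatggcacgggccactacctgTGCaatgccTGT
Gata3: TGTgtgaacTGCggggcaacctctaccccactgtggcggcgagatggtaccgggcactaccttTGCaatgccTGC
Gata4: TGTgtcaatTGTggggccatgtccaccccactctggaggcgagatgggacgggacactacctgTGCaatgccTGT

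The carboxy-terminal finger, which makes the main contact with GATA letters, lies in the next exon of each transcript, at chrX:7960607-7960681, chr6:88204610-88204684, chr2:9863119-9863193 and chr14:63203683-63203757.
Gata1: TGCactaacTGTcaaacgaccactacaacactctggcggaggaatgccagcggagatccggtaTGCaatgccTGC
Gata2: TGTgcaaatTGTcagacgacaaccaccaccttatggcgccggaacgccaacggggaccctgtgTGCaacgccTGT
Gata3: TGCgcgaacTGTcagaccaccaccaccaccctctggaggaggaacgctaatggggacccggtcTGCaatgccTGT
Gata4: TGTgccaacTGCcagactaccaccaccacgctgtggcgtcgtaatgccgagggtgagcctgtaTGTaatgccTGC

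Over the amino-terminal finger the 6 pairs among these 4 genes shared between 78.7% and 86.7% of the 75 bases, the most alike being *Gata2* and *Gata4*. Over the carboxy-terminal finger they shared between 72.0% and 80.0%. The longest run of identical bases in any of these pairs was 21. *Gata6* was not compared here.

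*Zfpm1* could not be measured. It had 0 counts in all 12 libraries, the P2 libraries included. The gene (chr8:122282141-122337251, plus strand, GRCm38) lies with 100% of its span inside Gm20388, a gene model on the same strand that runs over 4.43 Mb (chr8:119910841-124345722) and received between 1929 and 6106 counts per library. No exon base of *Zfpm1* is an exon base of Gm20388. All 71 protein-coding genes that lie wholly inside Gm20388 were at 0 in every library, 36 of them on its strand and 35 on the other.

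The same held across the genome. Of 1027 protein-coding genes lying wholly inside the span of another counted gene, 1008 (98.1%) were at 0 in all libraries. The share was 98.6% for 368 genes inside a gene of the same strand and 97.9% for 607 genes inside a gene of the opposite strand only. It was 15.7% for 13886 genes that overlap no other counted gene. Counting on whole gene spans, introns included and strand disregarded, with reads on more than 1 span dropped, would leave such zeros, but the setting is not given in the sources used here and was not tested. A zero for *Zfpm1* is therefore no evidence on its transcription, and no fold, test or *Zfpm1* to *Zfpm2* ratio is given.

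**Figure D1:**
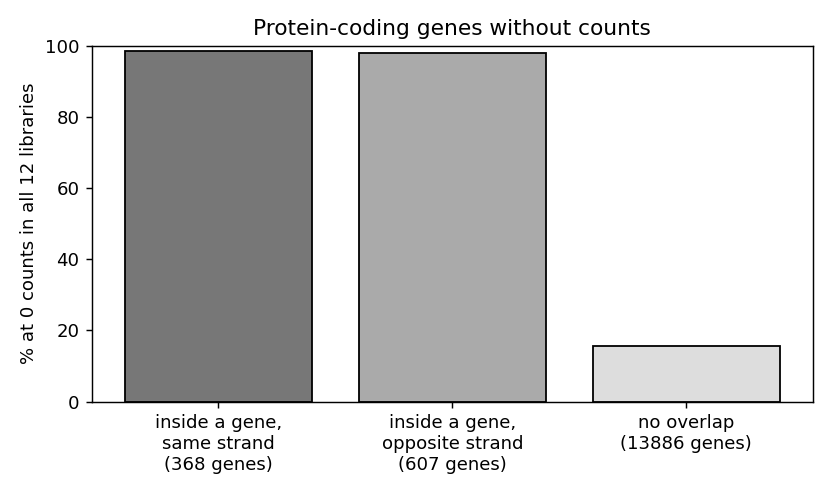
Percentage of protein-coding genes with 0 counts in all 12 libraries (vertical axis), for genes wholly inside another counted gene on the same strand, wholly inside one on the opposite strand, and without overlap. The bars stand at 98.6%, 97.9% and 15.7%, and *Zfpm1* belongs to the leftmost class.

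The other members were little touched by this. *Gata1*, *Gata2*, *Gata4*, *Gata6* and *Zfpm2* share none of their span with another counted gene, and *Gata3* shares 30% of its span, so part of its reads may be missing in every library alike. Levels between genes depend on the length used, since intronic reads seem to have been counted. They are given per kilobase of exon, and the order was checked per kilobase of unshared gene span.

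*Gata1*, the master regulator of erythroid genes, was highest in P2 cells. Its level was 173, 184 and 170 CPM in P2 replicates 1 to 3, 24.3, 30.1 and 25.4 CPM in CD31+ cells, 17.3, 34.6 and 24.6 CPM in CD324+ cells and 1.59, 5.87 and 5.69 CPM at E18.5. Every P2 library stood above every library of the other groups, the CD324+ and CD31+ libraries overlapped, and all E18.5 libraries were lower than these. The mean of 176 ± 7.35 CPM (SD, n = 3) in P2 cells was 6.90 times that of CD324+ cells (log2 fold change 2.77, SE 0.21, adjusted p = 9.50e-07, edgeR) and 6.61 times that of CD31+ cells (log2 fold change 2.71, SE 0.21, adjusted p = 1.13e-06, edgeR). CD31+ and CD324+ cells did not differ beyond their spread (log2 fold change 0.06, SE 0.20, adjusted p = 0.815, edgeR).

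*Gata1* in the non-erythroid gates had the order of the summed erythroid genes in 2 of the 3 gates. The summed level of the erythroid genes activated by GATA1 was 1023, 1578 and 1230 CPM in CD324+ replicates 1 to 3, so the order of these libraries was that of *Gata1*. It was 329, 641 and 572 CPM at E18.5, again in the order of *Gata1*. In E18.5 replicate 1, however, *Tfrc* and *Bcl2l1* held 107 and 119 of the 329 CPM, so most of that sum came from these genes. *Bcl2l1* averaged 103 CPM at E18.5 and 19.3 CPM in P2 cells, opposite to *Gata1*. In CD31+ cells the erythroid sum was 659, 860 and 1007 CPM. There the megakaryocyte markers, another home of GATA1, summed to between 347 and 611 CPM against between 44.3 and 103 CPM in P2 cells. All 8 of these markers were higher in CD31+ than in CD324+ cells. The part of erythroid or megakaryocyte RNA in the *Gata1* level of these gates was not tested.

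*Gata2*, the progenitor and endothelial member, was highest in CD31+ cells. These had 33.8, 37.1 and 39.1 CPM, P2 cells 4.43, 7.74 and 7.07 CPM, CD324+ cells 0.651, 1.51 and 0.42 CPM, and E18.5 cells 1.90, 1.38 and 1.04 CPM. The CD324+ values rest on 23, 48 and 17 counts and the E18.5 values on 123, 107 and 75. The 3 E14.5 groups did not overlap, with CD31+ above P2 and P2 above CD324+, while the E18.5 libraries overlapped those of CD324+ cells. P2 cells had 7.45 times the mean of CD324+ cells (log2 fold change 2.92, SE 0.37, adjusted p = 4.15e-05, edgeR) and CD31+ cells 5.72 times that of P2 cells (log2 fold change -2.53 for P2 against CD31+, SE 0.31, adjusted p = 3.06e-05, edgeR). Without P2 replicate 2, which held the most endothelial RNA, the log2 fold changes were 2.77 and -2.67, both past the threshold. Without CD324+ replicate 2, which had the highest *Gata2* of its group, the first was 3.56.

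*Gata3*, the lymphoid member, was low throughout and lowest in P2 cells. Its counts in P2 replicates 1 to 3 were 3, 11 and 11, or 0.0689, 0.229 and 0.212 CPM. CD324+ cells had 7.92, 5.26 and 6.05 CPM, CD31+ cells 3.13, 4.78 and 5.12 CPM, and E18.5 cells 0.464, 1.06 and 1.15 CPM. The E18.5 values rest on 30, 82 and 83 counts. The CD324+ libraries all lay above the CD31+ libraries by a narrow gap, and that difference missed the threshold (log2 fold change -0.57 for CD31+ against CD324+, SE 0.29, adjusted p = 0.11, edgeR). P2 cells had less *Gata3* than CD324+ cells (log2 fold change -5.21, SE 0.39, adjusted p = 7.92e-07, edgeR) and than CD31+ cells (log2 fold change -4.64, SE 0.39, adjusted p = 1.80e-06, edgeR). *Cd3e*, a T cell receptor subunit, was at 0 CPM in CD324+ cells and averaged 0.0106 CPM in CD31+ cells, but it shares 43.7% of its span with other genes.

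*Gata4* was highest in CD31+ cells. Its level there was 343, 345 and 286 CPM, against 12.3, 13.8 and 11 CPM in CD324+ cells, 3.90, 15 and 5.37 CPM in P2 cells and 19.6, 30.3 and 32.5 CPM at E18.5. The lowest CD31+ library lay far above every other library, and the P2 libraries lay on both sides of those of CD324+ cells, with replicate 2 above and the others below. The mean of 325 ± 33.6 CPM (SD, n = 3) was 26.3 times that of CD324+ cells (log2 fold change 4.71, SE 0.44, adjusted p = 5.15e-06, edgeR) and 40.1 times that of P2 cells (log2 fold change -5.33 for P2 against CD31+, SE 0.45, adjusted p = 2.03e-06, edgeR). Without P2 replicate 2 the P2 mean fell from 8.10 to 4.64 CPM and the log2 fold change for P2 against CD31+ was -6.13. P2 and CD324+ cells were not separated (log2 fold change -0.62, SE 0.39, adjusted p = 0.182, edgeR), but without P2 replicate 2 *Gata4* was lower in P2 cells (log2 fold change -1.41, adjusted p = 1.39e-05, edgeR). In P2 replicate 2 the sinusoidal endothelial genes linked to GATA4 summed to 323 CPM against 48.4 and 87.8 CPM in replicates 1 and 3, so *Gata4* and this list had the same order over the P2 libraries. The part of endothelial RNA in it was not tested.

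*Gata6*, the member known from lung, gut and heart, was highest at E18.5 and next in CD324+ cells, both CD54+CD31- gates. It had 95.3, 70.1 and 67.4 CPM at E18.5, 31.6, 33.0 and 29.3 CPM in CD324+ cells, 10.8, 10.3 and 11 CPM in CD31+ cells, and 1.19, 1.17 and 1.17 CPM in P2 cells. No 2 groups overlapped. The P2 values rest on 52, 56 and 61 counts, whose counting error of 0.165, 0.156 and 0.15 CPM (Poisson SD) exceeded the SD of 0.0147 CPM between the libraries. The CD324+ mean was 26.6 times that of P2 cells (log2 fold change -4.75 for P2 against CD324+, SE 0.12, adjusted p = 3.03e-10, edgeR) and 2.93 times that of CD31+ cells (log2 fold change -1.56 for CD31+ against CD324+, SE 0.10, adjusted p = 2.84e-07, edgeR). CD31+ cells in turn had 9.08 times the P2 mean (log2 fold change -3.19 for P2 against CD31+, SE 0.11, adjusted p = 3.07e-08, edgeR).

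*Zfpm2*, which encodes FOG2, the cofactor of GATA4 and GATA6, was highest where *Gata4* was. CD31+ cells had 267, 177 and 185 CPM, E18.5 cells 42.0, 47.1 and 62.3 CPM, CD324+ cells 5.15, 6.52 and 7.90 CPM and P2 cells 5.70, 11.1 and 7.37 CPM. The P2 and CD324+ libraries overlapped, and both groups lay below E18.5 cells, which lay below CD31+ cells. The CD31+ mean of 210 ± 49.7 CPM (SD, n = 3) was 32.2 times that of CD324+ cells (log2 fold change 5.0, SE 0.29, adjusted p = 1.32e-07, edgeR) and 26.1 times that of P2 cells (log2 fold change -4.71 for P2 against CD31+, SE 0.28, adjusted p = 2.11e-07, edgeR). Between P2 and CD324+ cells the difference missed the threshold (log2 fold change 0.28, SE 0.26, adjusted p = 0.348, edgeR) and was -0.01 without P2 replicate 2.

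**Figure D2:**
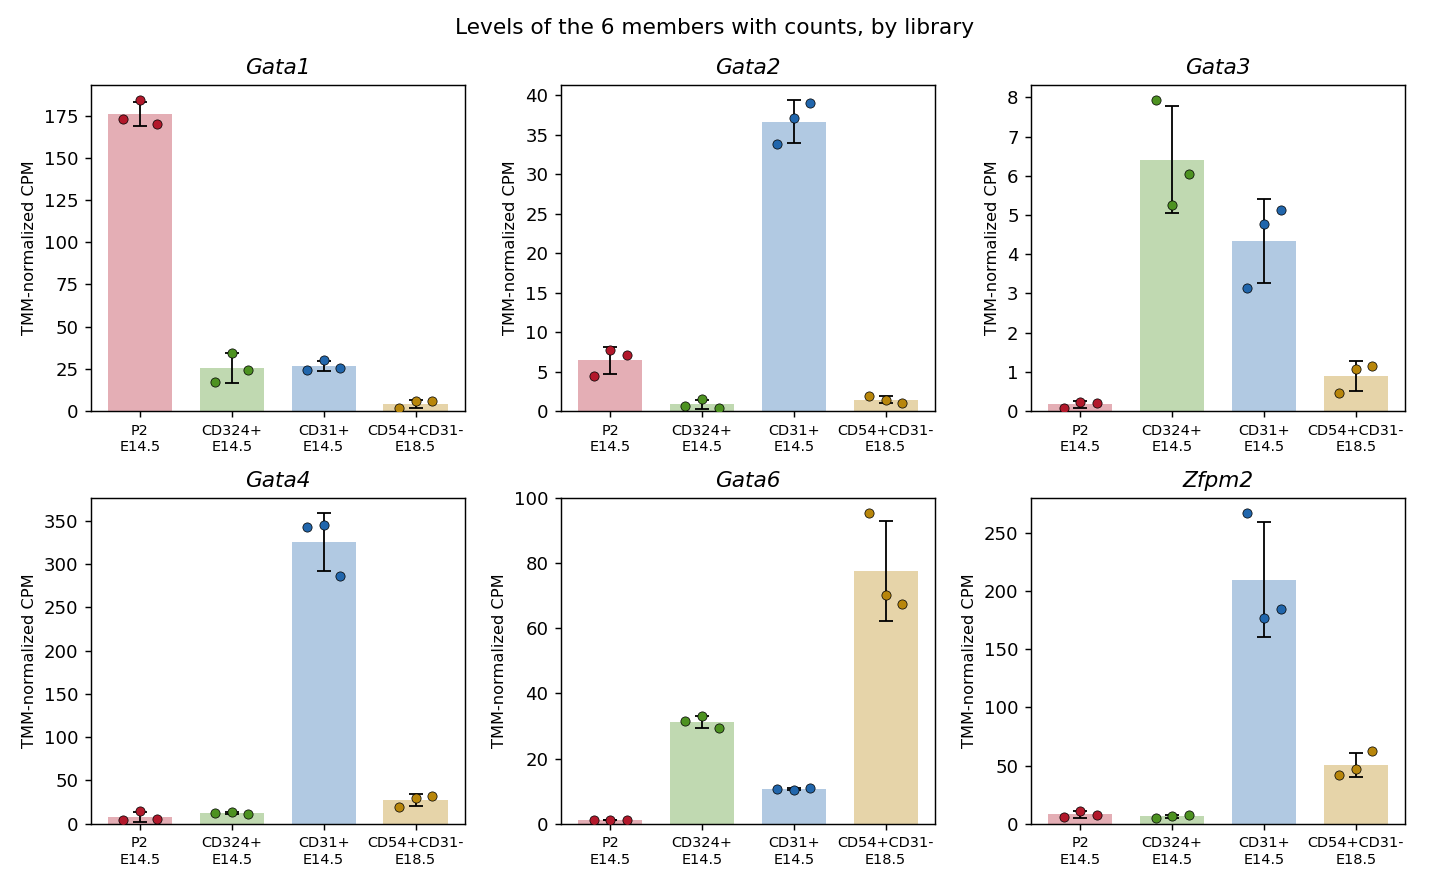
TMM-normalized CPM (vertical axes, linear, each with its own range) of the 6 members with counts in the 4 groups, where points are the 3 libraries, bars the mean and error bars 1 SD. *Gata1* stands highest in P2 cells at 176 CPM, *Gata2*, *Gata4* and *Zfpm2* in CD31+ cells at 36.7, 325 and 210 CPM, *Gata3* in CD324+ cells at 6.41 CPM and *Gata6* at E18.5 at 77.6 CPM.

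Read by comparison, P2 cells had 2 of the 6 tested members higher than CD324+ cells, *Gata1* and *Gata2*, and 2 lower, *Gata3* and *Gata6*. Over all 15461 genes tested 33.8% were higher and 36.1% lower, so a call alone was common. Against CD31+ cells, P2 cells had 1 of 6 higher, *Gata1*, and 5 lower, the median over the members being -3.92 on the log2 scale against -0.13 over all genes, of which 34.3% were higher and 39.4% lower. CD31+ cells had 3 of 6 members higher than CD324+ cells, *Gata2*, *Gata4* and *Zfpm2*, and 1 lower, *Gata6*, where 31.7% of all genes were higher and 34.0% lower. Without P2 replicate 2 P2 cells had 2 members higher and 3 lower than CD324+ cells, *Gata4* being added, and 1 higher and 5 lower than CD31+ cells. These comparisons share libraries, so their values are set side by side and not counted together. With the authors' own library factors in place of TMM, the median of all genes shifted by -0.26 for P2 against CD324+, -0.37 for P2 against CD31+, 0.11 for CD31+ against CD324+ and 0.24 for E18.5 against E14.5. The calls then split into 4008 higher and 6495 lower in place of 5229 and 5586 for P2 against CD324+, and 3831 and 7475 in place of 5310 and 6085 for P2 against CD31+. Each member kept its call in all 4 comparisons under these factors.

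**Figure D3:**
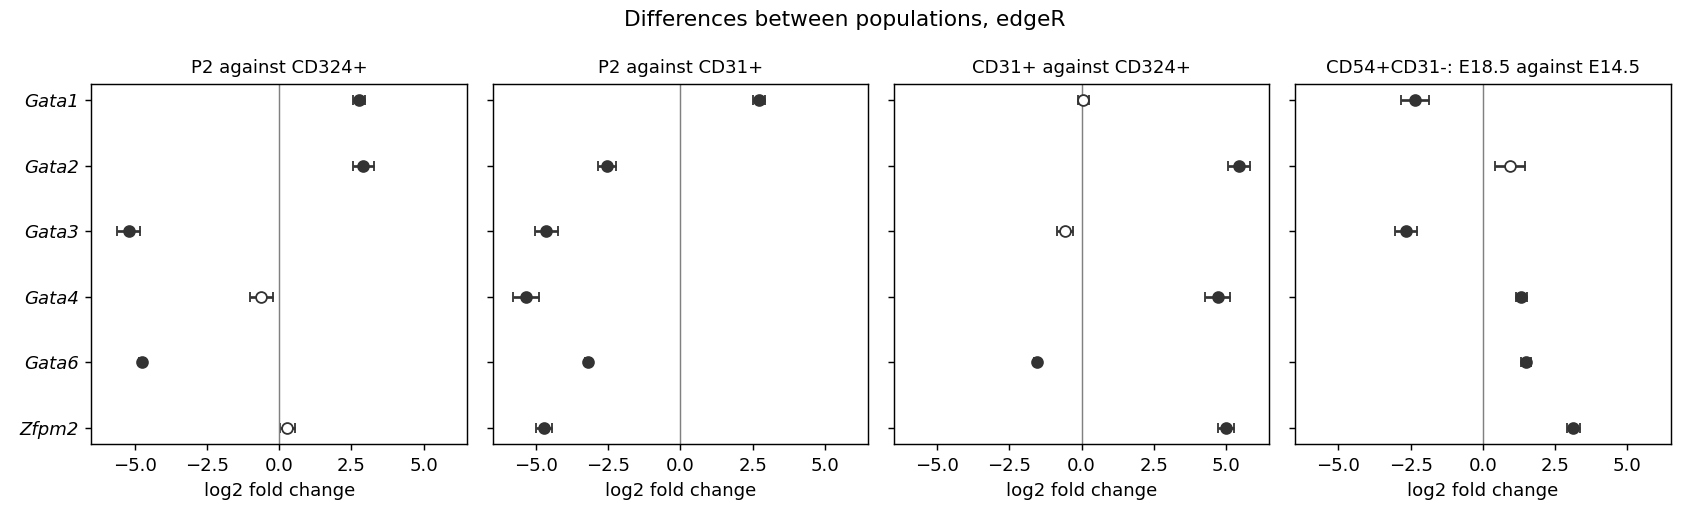
Log2 fold changes (horizontal axes) of the 6 members in the 4 comparisons, with bars of 1 SE from edgeR and filled points for an adjusted p below 0.05. *Gata1* lies to the right in both P2 comparisons, *Gata4* and *Zfpm2* lie at -5.33 and -4.71 in P2 against CD31+ cells, and 5 open points mark the differences that missed the threshold.

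Within a library, the balance between *Gata1* and *Gata2* does not depend on library size. On the scale of CPM per kilobase of exon, with 0.01 added to each value, the log2 ratio of *Gata1* to *Gata2* was 5.76, 5.62 and 6.84 in CD324+ cells, 6.42, 5.71 and 5.73 in P2 cells, 0.67, 0.85 and 0.52 in CD31+ cells and 0.87, 3.18 and 3.53 at E18.5. P2 and CD324+ cells overlapped with ratios that averaged 61.9 and 67.4, although their *Gata1* levels lay 6.90-fold apart. The CD324+ ratios rest on 23, 48 and 17 counts of *Gata2*. All CD31+ libraries lay below all P2 and CD324+ libraries. The difference was 5.27 between P2 and CD31+ cells, -5.40 between CD31+ and CD324+ cells and -3.54 between E18.5 and E14.5 CD54+CD31- cells, each with p = 0.1 in an exact two-sided permutation test of 3 against 3 libraries, the smallest p this design allows (adjusted p = 0.133 over 4 comparisons). The P2 to CD324+ difference of -0.12 had p = 0.8 in the same exact test and changed sign with a pseudocount of 0.1 in place of 0.01.

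The member with the highest level per kilobase of exon was *Gata1* in P2 cells (72.2 ± 3.02 CPM per kb, SD, n = 3), *Gata4* in CD31+ cells (83.1 ± 8.60), *Gata1* in CD324+ cells (10.5 ± 3.58) and *Gata6* at E18.5 (11.9 ± 2.36). The same gene led each group per kilobase of unshared span. Further down the order did depend on the length used. In CD31+ cells *Gata1* had 10.9 CPM per kb of exon and *Gata2* 6.8, but per kilobase of unshared span *Gata1* had 1.41 and *Gata2* 2.79. *Gata4* and *Gata6* exchanged places between gates on both scales. Per kilobase of exon *Gata4* averaged 50.1 times *Gata6* in CD31+ cells and 9.19 times in P2 cells, while *Gata6* averaged 1.53 times *Gata4* in CD324+ cells and 1.71 times at E18.5.

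**Figure D4:**
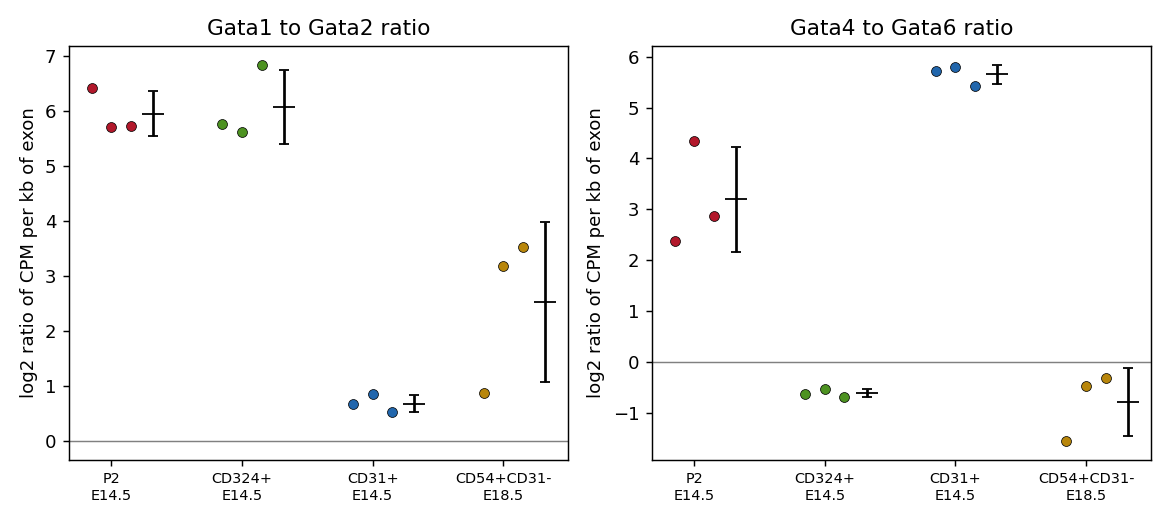
Log2 ratios (vertical axes, CPM per kilobase of exon) of *Gata1* to *Gata2* and of *Gata4* to *Gata6* within each library, with points for the libraries and a bar for the mean with 1 SD. CD31+ cells have the lowest mean for *Gata1* to *Gata2*, 0.68, and the highest for *Gata4* to *Gata6*, 5.65.

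At E18.5 the CD54+CD31- cells differed from those at E14.5 in 5 of 6 tested members. *Gata6* (log2 fold change 1.5, SE 0.16, adjusted p = 2.51e-04), *Gata4* (1.34, SE 0.20, adjusted p = 0.0011) and *Zfpm2* (3.14, SE 0.21, adjusted p = 3.88e-05) were higher. *Gata1* (-2.35, SE 0.50, adjusted p = 0.00523) and *Gata3* (-2.66, SE 0.37, adjusted p = 7.79e-04) were lower, all by edgeR. *Gata2* missed the threshold (0.95, SE 0.52, adjusted p = 0.143), and passed it without CD324+ replicate 2 (log2 fold change 1.59, adjusted p = 0.0251, edgeR). Of all 15863 genes tested, 35.9% were higher and 33.5% lower, that is 5697 and 5317, a split that turned to 5091 and 6325 with all 12 libraries in 1 fit and widened to 6591 and 4232 with the authors' factors. In both of these fits 3 members were higher and 2 lower.

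Without E18.5 replicate 1 the same 3 members were higher and the same 2 lower, with log2 fold changes of 1.30 for *Gata6*, 1.52 for *Gata4*, 3.23 for *Zfpm2*, -1.97 for *Gata1* and -2.37 for *Gata3*. That replicate had the highest *Gata6* of the 3, the highest lung epithelium sum and the lowest hepatoblast sum. It also had the lowest *Gata4*, 19.6 CPM against 30.3 and 32.5 CPM in replicates 2 and 3. Its *Zfpm2* was the lowest too, 42.0 CPM against 47.1 and 62.3 CPM, so these members ran opposite to *Gata6* over the replicates. Beside *Gata6*, *Gata4* and *Zfpm2*, all 10 tested lung epithelium markers, all 7 tested lung mesenchyme markers, all 8 tested heart markers and 9 of 10 tested stellate and mesenchymal markers were higher at E18.5. The lung epithelium markers summed to between 9765 and 21673 CPM at E18.5 and between 155 and 169 CPM in CD324+ cells. They summed to between 226 and 250 CPM in P2 cells, which had the lowest *Gata6*. At E18.5 against CD324+ cells the lung mesenchyme markers summed to between 110 and 141 against between 3.08 and 3.88 CPM. The heart markers summed to between 177 and 371 against between 1.88 and 3.90 CPM, and the mesenchymal markers to between 4120 and 4361 against between 1155 and 1214 CPM. *Nkx2-5*, which defines heart muscle, was not tested at its low level, 0, 0 and 0.0494 CPM at E14.5 and 0.356, 0.116 and 0.0692 CPM at E18.5. Such levels rest on few reads. Age and the share of lung, heart and mesenchymal RNA cannot be told apart in these libraries. Only 3 of the 9 tested hepatoblast product markers passed the threshold, all lower, whereas 2 were higher and 6 lower without E18.5 replicate 1 and 1 was lower without E18.5 replicate 2 or any single CD324+ replicate.

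**Figure D5:**
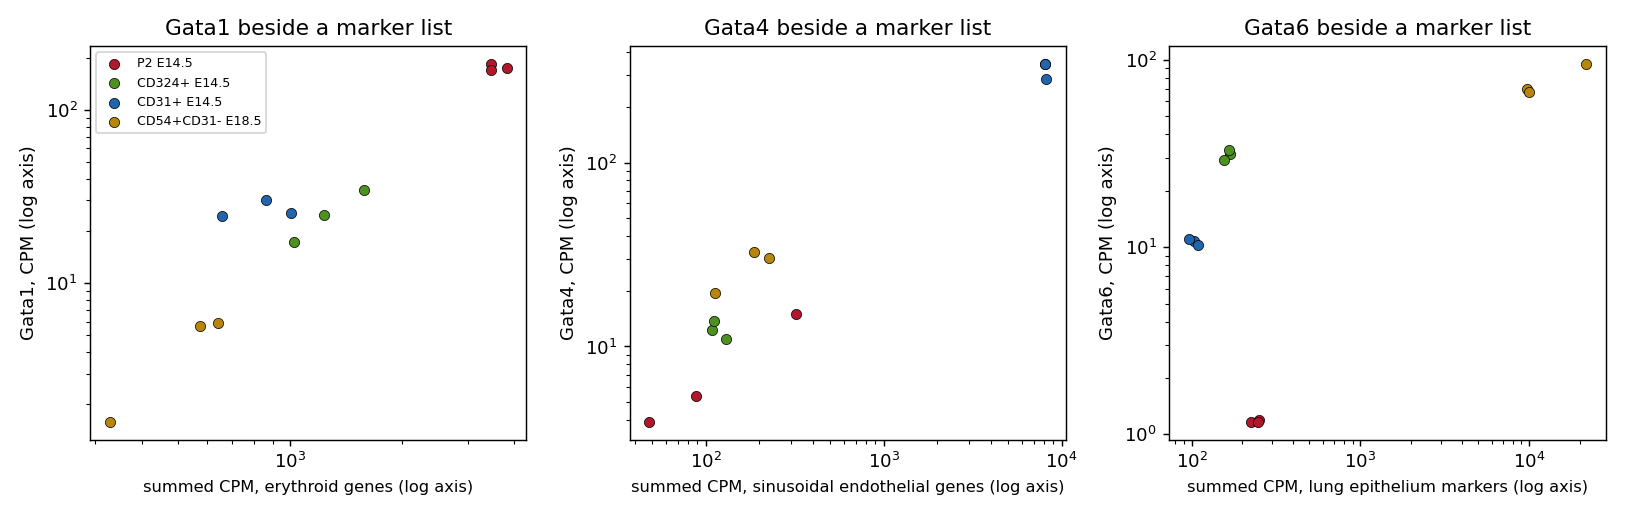
CPM of *Gata1*, *Gata4* and *Gata6* in each library (vertical axes, log scale) against the summed CPM of the erythroid genes, the sinusoidal endothelial genes and the lung epithelium markers (horizontal axes, log scale), with 1 point per library colored by group. E18.5 replicate 1 has the lowest *Gata1* at 1.59 CPM with the lowest erythroid sum at 329 CPM, and P2 replicate 2 has the highest *Gata4* of the P2 libraries at 15 CPM. Of the 329 CPM, *Tfrc* and *Bcl2l1* hold 107 and 119 CPM. Among the E14.5 groups P2 cells have the highest lung epithelium sums, 226 to 250 CPM, and the lowest *Gata6*, 1.17 to 1.19 CPM.

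These shares of all genes stand beside the list counts that follow. For P2 against CD324+ 33.8% were higher and 36.1% lower, and for P2 against CD31+ 34.3% and 39.4%. For CD31+ against CD324+ they were 31.7% and 34.0%, and at E18.5 35.9% and 33.5%. The DNA-bound partners of GATA1 and GATA2 were mostly higher in P2 cells. Of 12 listed, *Lyl1* and *Cbfa2t3*, which lie inside other genes, were at 0 in all libraries, and 10 were tested. Against CD324+ cells 8 were higher and 1 lower, and the median was 2.27 on the log2 scale against -0.01 over all genes. *Gfi1b*, a repressor that acts with GATA1, averaged 152 CPM in P2 and 19.9 CPM in CD324+ cells (log2 fold change 2.91, SE 0.17, adjusted p = 1.17e-07, edgeR), *Tal1*, the helix-loop-helix partner, 275 and 44.7 CPM (2.60, SE 0.23), and *Klf1*, the erythroid Krüppel factor, 397 and 56.3 CPM (2.80, SE 0.24). Against CD31+ cells 8 were higher and 2 lower, the lower ones being *Fli1*, an ETS factor of endothelium and megakaryocytes with 12.8 CPM in P2 and 362 CPM in CD31+ cells, and *Spi1*, the myeloid factor that antagonizes GATA1, with 1.53 and 12 CPM. For *Fli1* P2 replicate 2 mattered, since without it P2 against CD324+ went to a log2 fold change of -0.76 (adjusted p = 0.00249, edgeR), so that 8 partners were higher and 2 lower, and P2 against CD31+ went from -4.83 to -5.60. Between CD31+ and CD324+ cells 4 of 10 partners were higher and 1 lower, and with the replicate number as a block 5 were higher, *Spi1* being added (log2 fold change 0.55, adjusted p = 0.0204, edgeR). At E18.5 2 were higher and 5 lower, and without E18.5 replicate 1 3 were higher and 6 lower.

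The corepressors that FOG proteins recruit, the NuRD subunits and CtBP, were broadly expressed. All 14 were tested, and against CD324+ cells P2 cells had 11 higher and 1 lower (median 0.71 on the log2 scale), or 9 and 1 with the authors' factors and 11 and 0 without P2 replicate 2. *Mta2* averaged 286 against 97.9 CPM (log2 fold change 1.53, SE 0.11, adjusted p = 6.66e-07, edgeR) and *Ctbp1* 251 against 94.3 CPM (1.4, SE 0.13, adjusted p = 3.40e-06, edgeR). *Ctbp2* had the largest log2 fold change, 3.88, or 4.72 without CD324+ replicate 3, but at only 1.26 and 0.0798 CPM, and it shares 99.3% of its span with other genes. Against CD31+ cells 11 were higher and 1 lower, with a median of 0.79, or 9 and 2 with the authors' factors and 10 and 0 without P2 replicate 2. CD31+ cells had 7 higher and 4 lower than CD324+ cells, or 8 and 5 with the replicate block, which added *Rbbp4* (log2 fold change 0.23, adjusted p = 0.0346) and *Mta1* (-0.20, adjusted p = 0.0481). At E18.5 2 were higher and 8 lower, with a median of -0.38, or 2 and 10 without E18.5 replicate 1 and 3 and 5 with the authors' factors.

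Among 9 genes whose products modify or protect GATA1 or FOG1, 6 were higher and 0 lower in P2 than in CD324+ cells by edgeR, but 4 were higher and 3 lower with the authors' factors, so the direction of this list depended on scaling. *Hspa9*, a mitochondrial HSP70 chaperone, had 1357 CPM in P2 and 1335 CPM in CD324+ cells but 433 CPM in CD31+ cells (log2 fold change 1.64 against CD31+, SE 0.10, adjusted p = 2.83e-07, edgeR). Against CD31+ cells 7 of the 9 were higher and 2 lower, and this too depended on scaling. With the authors' factors *Ep300* lost its call (log2 fold change 0.00, adjusted p = 0.987, edgeR) and *Kdm1a* went to -0.08 (adjusted p = 0.383, edgeR). CD31+ cells had 3 higher and 1 lower than CD324+ cells, and at E18.5 3 were higher and 5 lower, or 4 and 5 without E18.5 replicate 1.

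Genes known to be activated by GATA1 did not all follow it. Of 16 listed erythroid genes *Ahsp* was not found by name, *Alas2*, which lies inside *Apex2*, was at 0, and 14 were tested. P2 cells had 9 higher and 2 lower than CD324+ cells, with a median of 1.00. *Epor*, the erythropoietin receptor, averaged 93.3 against 13.5 CPM (log2 fold change 2.78, SE 0.22, adjusted p = 1.44e-06, edgeR), *Ermap*, an erythroid membrane protein, 839 against 106 CPM (2.96, SE 0.18, adjusted p = 1.79e-07) and *Ank1*, the red cell ankyrin, 788 against 157 CPM (2.31, SE 0.13, adjusted p = 1.18e-07). By contrast *Slc4a1*, the late band 3 anion exchanger, averaged 120 CPM in P2 and 224 CPM in CD324+ cells, and *Bcl2l1*, a survival gene, 19.3 and 37.3 CPM. Against CD31+ cells 9 were higher and 1 lower with a median of 1.79. CD31+ cells had 1 higher and 9 lower than CD324+ cells with a median of -0.55, or 4 lower without CD31+ replicate 1, while *Gata1* itself did not separate these groups. At E18.5 1 was higher, *Bcl2l1*, and 9 lower with a median of -1.63, and 13 were lower without E18.5 replicate 1 but 5 without CD324+ replicate 2 or 3.

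The progenitor genes linked to GATA2 split between P2 and CD31+ cells. Of 10 listed 9 were tested, and P2 cells had 4 higher and 3 lower than CD324+ cells, or 3 and 4 without P2 replicate 2. Over all genes 33.8% were higher and 36.1% lower, so these counts lay near that share. *Kit*, part of the P2 gate, averaged 323 CPM in P2, 11.2 in CD324+ and 60.1 in CD31+ cells, and *Myb* 278, 12.2 and 38.1 CPM. Against CD31+ cells 3 were higher and 6 lower, among them *Erg* (log2 fold change -5.67, SE 0.56), *Cd34* (-5.62, SE 0.71) and *Mecom* (-5.55, SE 0.57), genes that stem cells and endothelium share, with -6.62, -6.80 and -6.66 without P2 replicate 2. CD31+ cells had 7 of 9 higher than CD324+ cells. At E18.5 4 were higher and 2 lower. Of 7 mast cell genes linked to GATA2, 3 were tested at E14.5. CD31+ cells had *Cpa3* and *Hdc*, with 3.05 and 15 CPM there, higher than CD324+ cells and 0 lower. *Ms4a2*, at 1.12 CPM, missed the threshold but passed it without CD324+ replicate 2. P2 cells had 2 lower than CD31+ cells and 0 higher. *Mcpt4* and *Tpsb2* were at 0 in the CD31+ libraries. At E18.5 1 was tested, *Hdc*, and it was higher, or 1 was higher and 1 lower without E18.5 replicate 1. *Hdc* averaged 24.2 CPM at E18.5, where *Gata2* averaged 1.44 CPM. The 7 genes summed to between 14.7 and 27.3 CPM in CD31+ cells.

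Endothelial genes, sinusoidal and general alike, were higher in CD31+ cells, as *Gata4* and *Zfpm2* were. All 10 sinusoidal endothelial genes linked to GATA4 and all 10 general endothelial markers were higher in CD31+ than in CD324+ cells, with medians of 5.36 and 7.32, and P2 cells had all 20 lower than CD31+ cells. The general list includes *Pecam1*, which encodes CD31, part of the gates, so its direction in these comparisons was set by the sort. *Lyve1*, the hyaluronan receptor of sinusoids, averaged 1925 CPM and *Stab2*, a scavenger receptor, 2021 CPM in CD31+ cells, against 6.85 and 8.04 CPM in CD324+ cells. The sinusoidal genes summed to between 8032 and 8189 CPM in CD31+ cells and between 108 and 130 CPM in CD324+ cells. P2 cells had 3 sinusoidal genes higher and 2 lower than CD324+ cells, or 3 and 5 without P2 replicate 2, and 8 of the 10 general endothelial markers higher, or 7 without it. At E18.5 7 of 9 tested sinusoidal genes and 9 of 10 general markers were higher than at E14.5, and without E18.5 replicate 1 8 sinusoidal genes were higher and 1 lower.

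Hepatoblast factors and mesenchymal markers were lower than in CD324+ cells in both gates where *Gata6* was. Compared with CD324+ cells, P2 cells had all 12 hepatoblast transcription factors lower (median -6.28) and CD31+ cells 11 of them (median -5.52). *Hnf4a*, which drives hepatocyte genes, averaged 559 CPM in CD324+, 8.40 in CD31+ and 7.64 in P2 cells. For *Gata6* CD31+ cells had 10.7 ± 0.327 CPM (SD, n = 3) against 31.3 ± 1.83 CPM in CD324+ cells. At E18.5 3 of these 12 factors were higher and 6 lower, or 5 and 6 without E18.5 replicate 1 and 3 lower without CD324+ replicate 1, while *Gata6* was higher. Of 10 tested stellate and mesenchymal markers, 9 were lower in P2 (median -2.08) and 9 in CD31+ cells (median -1.67) than in CD324+ cells, and at E18.5 9 were higher and 1 lower (median 3.28). The part of mesenchymal RNA in the *Gata6* level was not tested.

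Other genes with GATA-type fingers were compared by the same tests. *Gata5*, a heart and gut member, had 1.16, 1.64 and 1.18 CPM in CD324+ cells and 4.57, 4.21 and 3.70 CPM at E18.5. It had at most 0.231 CPM, or 12 counts, in any P2 or CD31+ library. It was lower in P2 than in CD324+ cells (log2 fold change -3.33, SE 0.75, adjusted p = 0.00248, edgeR, or -4.06 without P2 replicate 3) and higher at E18.5 (1.84, SE 0.22, adjusted p = 4.13e-04, edgeR), as *Gata6* was. *Trps1*, a repressor with 1 GATA-type finger, had 66.7, 55.3 and 62.1 CPM in CD31+ cells, 43.9, 32 and 33.5 CPM at E18.5 and at most 4.75 CPM in the P2 and CD324+ libraries. *Zglp1* was at 0 in all libraries, with 99.9% of its span inside another gene.

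The genes most like each member over the 12 libraries were found among the 16643 genes that passed the count filter, by the root mean square difference of mean-centred log2(CPM + 1) profiles. *Gata1* was closest to *Add2* (0.14), *Gfi1b* (0.17) and *Epor* (0.21). *Add2*, a red cell membrane skeleton gene, averaged 410 CPM in P2, 59.1 in CD324+, 56.2 in CD31+ and 12.9 CPM in E18.5 cells. *Gata4* was closest to *Bace2* (0.17), *Dchs1* (0.22) and *Adarb1* (0.28), and *Gata6* to *Stard13* (0.21), *Lurap1l* (0.21) and *Fgfr3* (0.24). *Zfpm2* was closest to *Tshz3* (0.28), *B3galt1* (0.29) and *Clca3a1* (0.31). *Gata2* had no neighbour as near, the closest being *Tfpi* (0.37), *Mfng* (0.39) and *Tnik* (0.40), all highest in CD31+ cells. *Gata3* was closest to *Steap1* (0.28), *Amot* (0.30) and *Glul* (0.30). The spread of the member's own profile on this scale ran from 1.10 for *Gata3* to 2.09 for *Gata4*. Adding 1 CPM flattens profiles near or below that level, so spreads and distances of low genes are compressed. *Gata3* had a log2 fold change of -5.21 for P2 against CD324+ without it.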

How the data were processed

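RNA from sorted FL cells was sequenced in 12 libraries, 3 per group. The study names independent litters for the E14.5 populations, and for the E18.5 libraries the source of replicates is not given in the sources used here. According to its methods, ribosomal sequences were removed enzymatically, reads were aligned to GRCm38 with STAR 2.5.0a and counted per gene with featureCounts 1.4.6-p3. The authors deposited whole-number counts and, beside them, a score that is the count times 1 factor per library, rounded. The counts were used for tests, and the score only to read each library's factor. Of 38127 identifiers, 37932 were found in GENCODE vM21.

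Tests used edgeR 4.0.16 in R 4.3.3 (TMM, filterByExpr, quasi-likelihood test, Benjamini-Hochberg adjustment), with 1 fit for the 9 E14.5 libraries and 1 for the 6 CD54+CD31- libraries. DESeq2 1.42.0, other normalizations, filters, a replicate block and each library left out were alternatives, and the authors' factors were added after the data were seen. The scripts were tested on simulated data. Members and gene lists were chosen with earlier results of these data known. Named genes are the members, other GATA-type genes, defining markers, up to 4 called genes of largest change per list and comparison, and 3 nearest profiles per member, and some genes that this rule names are not reported here. *Bcl2l1*, *Lmo2*, *Cd3e*, *Cd3d*, *Il2ra*, *Mcpt4*, *Tpsb2*, *Ms4a2*, *Mta1*, *Kdm1a*, *Ep300* and the genes at 0 inside others fall outside this rule and were named after their values were seen. The replicate block used the number for all groups of a fit, P2 and E18.5 libraries included. Deviations of same-numbered CD31+ and CD324+ libraries correlated by 0.334, 0.260 and 0.122. Those of P2 and CD31+ libraries correlated by 0.015, 0.077 and 0.336. Libraries of different number were not correlated, so a pairing is not established, and the main fit used none. Replicates differed by more than counting noise in every pair, and p-values measure the spread between these samples.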

Additional observations from a re-analysis of the deposited data

How the results depend on the processing

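Counts of genes called stayed within 1.5 times under every alternative in all 4 comparisons. Of the members' counts, 1 moved further. With at least 10 counts in every library, 1 member was lower in P2 than in CD324+ cells in place of 2, since *Gata3* was then not tested. Leaving out each library in turn gave between 2 and 3 members lower in P2 than in CD324+ cells and between 3 and 4 higher at E18.5, and left the other members' counts as they were. The genes called then ranged from 4851 to 4991 higher and 5316 to 5552 lower for P2 against CD324+, 5035 to 5489 and 5630 to 5973 for P2 against CD31+, 4194 to 4765 and 4821 to 5644 for CD31+ against CD324+, and 5187 to 5915 and 4797 to 5774 at E18.5.

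The log2 *Gata1* to *Gata2* ratio with a pseudocount of 0.1 differed by 0.48 between P2 and CD324+ cells, a change of sign, and by -4.69 between CD31+ and CD324+ cells. Leaving out 1 library gave -0.36 to 0.26 for P2 against CD324+, the sign changing without CD324+ replicate 3, 5.04 to 5.39 for P2 against CD31+, -5.63 to -5.01 for CD31+ against CD324+ and -4.05 to -2.72 at E18.5. For listed genes outside the family, a change of sign is named only where the main fit or the alternative was past the threshold. P2 against CD324+ changed sign for *Fli1* without P2 replicate 2 (-0.76, the other omissions reaching 0.33) and for *Hspa9* with the authors' factors (-0.26). P2 against CD31+ changed sign for *Gatad2a* (-0.16) and *Kdm1a* (-0.08) with the authors' factors. The cause was not tested.

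With the replicate block, pairing CD31+ with CD324+ libraries, no member changed its call, and 4952 genes were higher and 5374 lower in place of 4899 and 5251. The same block gave 5318 and 5592 for P2 against CD324+, where the call for *Prtn3* was lost (adjusted p = 0.0578, edgeR). It gave 5382 and 6078 for P2 against CD31+, and 5330 and 4999 at E18.5. Deviations of same-numbered libraries correlated by only 0.067, -0.020 and 0.084 for P2 and CD324+ cells. For E18.5 and E14.5 CD54+CD31- cells they correlated by 0.069, 0.017 and 0.046. With all 12 libraries in 1 fit the median of all genes at E18.5 shifted by -0.185. With 3 libraries per group, differences smaller than about their spread could not be resolved.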

Other observations

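Beside *Gata3*, the lymphoid markers linked to it gave a mixed picture. Of 12 listed, 7 were tested at E14.5, and P2 cells had 3 higher and 4 lower than CD324+ cells, or 2 and 4 without P2 replicate 2. Over all genes 33.8% were higher and 36.1% lower in this comparison. *Tcf7*, a Wnt effector used in T cells, averaged 20 CPM in CD324+, 14.0 in CD31+ and 1.01 CPM in P2 cells, while *Zbtb16* averaged 0.981, 9.44 and 10.2 CPM and *Il1rl1*, the IL-33 receptor, 4.17, 3.99 and 28.5 CPM. CD31+ cells had 4 of 7 higher and 2 lower than CD324+ cells, and at E18.5 5 of 8 were higher and 2 lower. The markers at or near 0 were *Cd3e*, *Cd3d* and *Il2ra*, whose mean stayed at or below 0.109 CPM in each group.

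Macrophage and granulocyte markers, which *Spi1* serves, were lower in P2 cells in all 11 tested genes against both CD324+ and CD31+ cells. Without CD324+ replicate 2 only 7 were lower than in CD324+ cells, the calls for *Mpo*, *Elane*, *Prtn3* and *S100a9* being lost (adjusted p = 0.217, 0.299, 0.605 and 0.193, edgeR). They summed to between 8.11 and 12.3 CPM in P2, between 119 and 240 CPM in CD324+ and between 186 and 700 CPM in CD31+ cells. *Mpo*, the granule peroxidase, had 101, 194 and 419 CPM in CD31+ and 3.59, 63 and 3.58 CPM in CD324+ cells (log2 fold change 3.35, SE 1.03, adjusted p = 0.0151, edgeR). The CD324+ mean of 23.4 CPM fell to 3.59 CPM without replicate 2, where the log2 fold change was 5.96, and without CD31+ replicate 3 the call was lost (2.58, adjusted p = 0.0568, edgeR).

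Of the 188 genes on the lists that were found in the counts, 6 lie wholly inside another counted gene, and all 6 were at 0 in every library. These are *Zfpm1*, *Cbfa2t3* and *Foxf1* inside Gm20388, *Alas2* inside *Apex2*, *Lyl1* inside *Nfix* and *Lrat* inside Rbm46os. *Lmo2*, the bridge between TAL1 and GATA1, shares 62.5% of its span and averaged 15.8 CPM in P2 and 2.82 CPM in CD324+ cells.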
